A study of Homo sapiens with 18 samples.

Results

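The COPII coat is the protein shell that buds transport vesicles from the endoplasmic reticulum (ER), and the transcripts of its subunits were followed in 18 bulk RNA-seq libraries of IMR90 ER:RAS cells. The 10 subunit genes, taken by symbol as the rows SAR1A, SAR1B, SEC23A, SEC23B, SEC13, SEC31A, SEC24A, SEC24B, SEC24C and SEC24D, were all present among the 28266 gene rows of the table, and all 10 were among the 14341 genes with enough counts to test. IMR90 cells are human lung fibroblasts, grown in culture. The ER:RAS protein is an oncogenic RAS fused to the hormone-binding part of the oestrogen receptor, and every library, controls included, came from cells that carried it. The drug 4-hydroxytamoxifen (4OHT) switches the fusion on and drives the cells into senescence.

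Cells received 100 nM 4OHT (senescent) or DMSO (control) and, after 7 days, an inhibitor of the N-myristoyltransferases (NMTi) or DMSO for 3 days, with collection on day 10. IMP1088 was used at 300 nM and DDD86481 at 1.5 µM, so the 6 groups of 3 libraries were control and senescent cells with DMSO, IMP1088 or DDD86481. The study asked how these cells depend on membrane traffic that needs N-myristoylated proteins such as the ARF GTPases of the COPI coat. The labels number the 3 replicates of a group without saying what separates them, and the study describes its replicates of these conditions as independent experiments.

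COPII assembly begins when the exchange factor PREB loads SAR1 with GTP and SAR1 enters the ER membrane at exit sites. SAR1 then recruits the inner coat, a pair of SEC23 and SEC24, in which SEC23 stimulates the GTPase of SAR1 and SEC24 binds the cargo to be exported. SEC13 and SEC31 build the outer cage that bends the membrane into a vesicle. Humans have paralogs of SAR1, SEC23, SEC24 and SEC31, and the coat is known in fibroblasts for exporting procollagen. SAR1 itself is not a myristoylated GTPase, unlike ARF.

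Library totals ran from 16143716 to 23189950 counts, and each level below is in CPM, counts scaled to a common library size by the TMM method. The 9 fibroblast markers, collagens and vimentin among them, summed to between 24709 and 36175 CPM in the control libraries and between 11433 and 16948 CPM in the senescent ones. Markers of epithelial cells summed to at most 39.3 CPM with 2 of 5 at 0, those of endothelial cells to at most 10.6 CPM with none at 0, and those of immune cells to at most 0.561 CPM with 2 of 4 at 0. The epithelial sum was 6.33 to 39.3 CPM in control and 0.94 to 3.00 CPM in senescent libraries, and the endothelial sum 1.05 to 3.79 and 5.40 to 10.6 CPM. The fibroblast, epithelial and endothelial sums thus moved with senescence without overlap, and their part in the results was not tested. In bulk RNA a smaller share of cells and less RNA per cell cannot be told apart.

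Control DMSO replicates 3 and 1 stood apart by transcript length, in opposite directions. In replicate 3, transcripts of 4 kb or more lay at a median of -0.21 from the group mean on the log2 CPM scale. Those under 2 kb lay at 0.28, whereas replicate 1 showed the opposite (0.16 and -0.21). In every library of the other groups these medians stayed between -0.08 and 0.08. The deviations within a group are tied through its mean, so this measure alone does not settle which library was unusual. A chi-square per gene between the counts of 2 libraries is larger where they differ more. It was 16.4 between control DMSO replicates 1 and 2, 101 between 1 and 3, and 51.2 between 2 and 3. Within the other groups it was at most 26.8. By this measure replicate 3 differed most from the rest of its group. Of the subunits only SEC13 and SEC23B have transcripts under 3.84 kb, so values that rest on control DMSO are also given without replicate 3 where that changed a call.

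**Figure D1:**
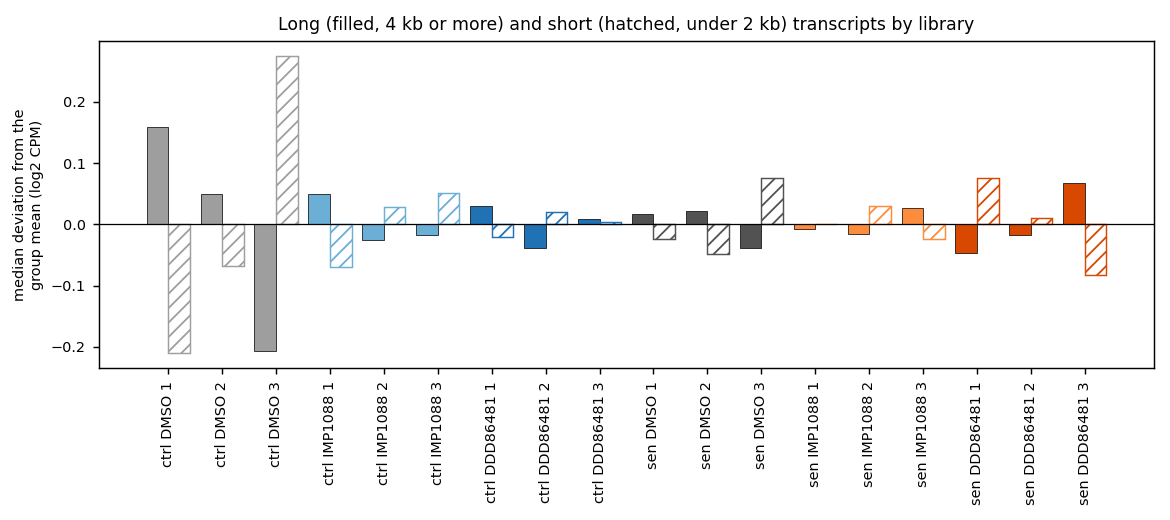
Median deviation of log2 CPM from the mean of the library's group, for long transcripts (filled bars, 4 kb or more) and short transcripts (hatched bars, under 2 kb), in each of the 18 libraries (ctrl, control; sen, senescent). Control DMSO replicate 3 has the longest pair of bars, -0.21 for long and 0.28 for short transcripts.

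To ask whether oncogene-induced senescence altered the coat, senescent and control cells with DMSO were compared. Of the 10 subunits, 5 rose and 1 fell (edgeR quasi-likelihood test, Benjamini-Hochberg adjusted p under 0.05), in a comparison that called 68.5% of all tested genes, 32.5% higher and 36% lower. The share of subunits called, 6 of 10, was thus not above that of all genes. SEC23B and SEC24C rose the most, by 1.94-fold and 1.85-fold, followed by SEC24A, SAR1B and SEC13, while SAR1A fell to 0.683 of its control level. The median log2 fold change of the 10 was 0.29, beside -0.05 for all genes tested. All 6 passed in each of the 6 fits that left out 1 library, and under upper quartile scaling, which moved the median of all genes to -0.21. With control DMSO replicate 3 and senescent DDD86481 replicate 1 (the lowest of its group for SEC31A, SEC24A, SEC24B and SEC24D) removed, 5 rose and 2 fell, SEC31A being the added fall.

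The SAR1 GTPases were the pair in which the paralogs moved in opposite directions. SAR1A (chromosome 10, 70147289 to 70170514 in GRCh38.p14) had 207, 229 and 249 CPM in control DMSO replicates 1, 2 and 3 and 155, 161 and 151 CPM in senescent DMSO. The groups did not overlap, and the log2 fold change was -0.55 ± 0.08 (SE, n = 3 per group, edgeR adjusted p = 5.69e-06). SAR1B (chromosome 5, 134601149 to 134632828), the paralog whose loss causes chylomicron retention disease, had 53.5, 61.8 and 67.4 CPM in control DMSO and 85.7, 85.7 and 75.8 CPM in senescent DMSO. All senescent libraries were above all control libraries, with a log2 fold change of 0.44 ± 0.09 (edgeR adjusted p = 0.000377). PREB, the exchange factor for both, rose alongside from 48.3, 48.3 and 59.6 CPM to 70.3, 64.7 and 78.5 CPM (log2 fold change 0.45 ± 0.10, edgeR adjusted p = 0.00053).

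Of the inner-coat SEC23 pair, only SEC23B passed the test. SEC23B (chromosome 20, 18507548 to 18561415), mutated in a congenital anaemia, had 56.3, 46.5 and 44 CPM in control DMSO and 98, 90.8 and 96 CPM in senescent DMSO. The groups were far apart, with a log2 fold change of 0.96 ± 0.12 (edgeR adjusted p = 1.02e-06). SEC23A (chromosome 14, 39031919 to 39103235), mutated in cranio-lenticulo-sutural dysplasia, had 326, 305 and 298 CPM in control DMSO and 335, 305 and 301 CPM in senescent DMSO. These values overlapped, and the log2 fold change of 0.02 had a 95% interval from -0.19 to 0.23 (edgeR adjusted p = 0.884).

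SEC24, the cargo-binding subunit, has paralogs that differ in the export signals they bind, and those that passed the test were SEC24A and SEC24C. SEC24C (chromosome 10, 73744372 to 73772161) had 149, 121 and 99.1 CPM in control DMSO and 232, 222 and 230.0 CPM in senescent DMSO. Every senescent library exceeded every control library (log2 fold change 0.89 ± 0.12, edgeR adjusted p = 9.87e-07). Of its exonic bases 43.4% lie opposite an annotated antisense transcript. The libraries were directional and the study names a stranded alignment, but the strand setting of the counting was not given in the sources used here, so whether reads of the overlapping transcripts were kept apart is uncertain. SEC24A (chromosome 5, 134648382 to 134727909) had 68.3, 63.1 and 53.6 CPM in control DMSO and 98.6, 94.9 and 86.3 CPM in senescent DMSO, again without overlap (log2 fold change 0.60 ± 0.15, edgeR adjusted p = 0.00129). In RefSeq it lies 15553 bases from SAR1B, on the opposite strand, whereas in the GENCODE annotation 6.09% of its exonic bases are shared with SAR1B.

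The other SEC24 paralogs did not pass. SEC24B (chromosome 4, 109433815 to 109540896) had 57, 52.9 and 36.6 CPM in control DMSO and 55.1, 56.3 and 56 CPM in senescent DMSO, with the low value in the library that had less of its long transcripts. Its log2 fold change was 0.19 ± 0.14 (edgeR adjusted p = 0.247), and it was 0.02 without that library (edgeR adjusted p = 0.884). Over all fits that left out 1 library it ran from 0.02 to 0.32, and it passed in none of them. After a correction for transcript length SEC24B passed narrowly, at 0.26 (edgeR adjusted p = 0.0496). This correction also removes any difference between groups that follows transcript length. SEC24D (chromosome 4, 118722823 to 118836126), which is known to take part in procollagen export, had 261, 213 and 177 CPM in control DMSO and 229, 220.1 and 206 CPM in senescent DMSO. The senescent libraries sat inside the range of the controls, and the log2 fold change of 0.01 had a 95% interval from -0.29 to 0.31 (edgeR adjusted p = 0.954).

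In the outer cage, SEC13 passed the test and SEC31A did not. SEC13 (chromosome 3, 10300931 to 10321112), which also serves in the nuclear pore, had 186, 189.6 and 230.1 CPM in control DMSO and 264, 236 and 290.3 CPM in senescent DMSO. The groups did not overlap, although the closest libraries differed by little (log2 fold change 0.38 ± 0.10, edgeR adjusted p = 0.0019). SEC31A (chromosome 4, 82818509 to 82900569) had 475, 383 and 266 CPM in control DMSO and 371, 374 and 344 CPM in senescent DMSO. The control libraries spread widely around the senescent ones, and the log2 fold change was -0.05 ± 0.15 (edgeR adjusted p = 0.796). It was -0.24 (edgeR adjusted p = 0.0628) without control DMSO replicate 3, -0.24 (edgeR adjusted p = 0.0351) with senescent DDD86481 replicate 1 removed as well, and 0.03 (edgeR adjusted p = 0.862) after the correction for transcript length, so its direction in senescence was not settled. Its paralog SEC31B, which was not among the 10, had 96, 80 and 49 counts in control DMSO and 11, 13 and 12 counts in senescent DMSO (log2 fold change -2.15 ± 0.30, edgeR adjusted p = 2.4e-06), and 22.7% of its exonic bases are shared with a readthrough transcript.

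**Figure D2:**
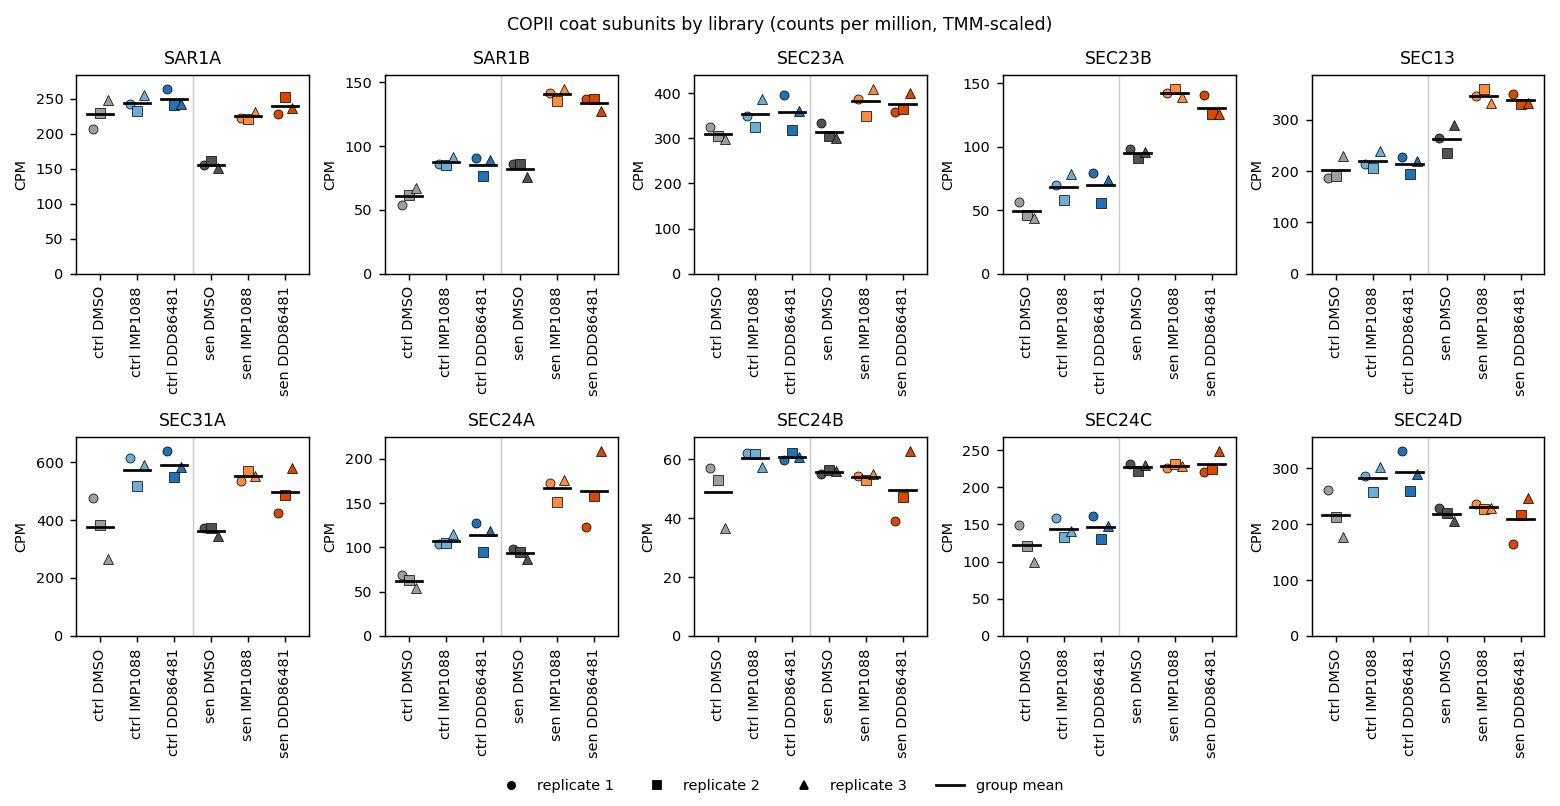
Level of each COPII subunit in CPM (vertical axis, from 0) in the 6 groups (horizontal axis; ctrl, control; sen, senescent), with a symbol for each replicate and a line at the group mean. SAR1A is lowest in the 3 senescent DMSO libraries (151 to 161 CPM), and SEC24C separates the 9 control libraries (99.1 to 161 CPM) from the 9 senescent ones (221 to 248 CPM).

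To ask how NMTi acted on the coat in senescent cells, each inhibitor was set against the senescent DMSO libraries, which both comparisons share. Of the 10 subunits, 7 rose and none fell with IMP1088 (44.4% of all tested genes were called, 20.6% higher), and 7 rose and none fell with DDD86481 (43.2% called, 20.1% higher). In both comparisons these were SAR1A, SAR1B, SEC23A, SEC23B, SEC13, SEC31A and SEC24A. SEC24B, SEC24C and SEC24D did not pass with either inhibitor. The median log2 fold change of the 10 was 0.46 with IMP1088 and 0.41 with DDD86481, beside -0.04 and -0.04 for all genes. The inhibitors were used at different doses, so their values are given side by side and were not compared.

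SEC24A had the largest estimated rise of the 10 with both inhibitors. Its senescent levels were 172, 152 and 176 CPM with IMP1088 and 123, 158 and 208 CPM with DDD86481, against 86.3 to 98.6 CPM with DMSO. The log2 fold changes were 0.84 ± 0.15 (edgeR adjusted p = 0.000103) and 0.81 ± 0.15 (edgeR adjusted p = 0.00016). All treated libraries exceeded the DMSO libraries, but those with DDD86481 were spread widely, and their lowest value was in replicate 1.

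SAR1B reached 141, 136 and 145 CPM with IMP1088 and 137, 137 and 127 CPM with DDD86481 in senescent cells, well above DMSO (log2 fold changes 0.77 ± 0.09 and 0.70 ± 0.09, edgeR adjusted p = 1.69e-06 and 5.59e-06). SAR1A reached 222, 221 and 231 CPM with IMP1088 and 229, 252 and 236 CPM with DDD86481 (log2 fold changes 0.53 ± 0.08 and 0.62 ± 0.08, edgeR adjusted p = 2.84e-05 and 5.1e-06). These SAR1A levels lay in the range of the control libraries with DMSO, 207 to 249 CPM, except for 1 DDD86481 library at 252 CPM. PREB rose with both, to 109, 109.9 and 109.6 CPM with IMP1088 and 116, 108 and 109.8 CPM with DDD86481 (log2 fold changes 0.62 ± 0.10 and 0.65 ± 0.10, edgeR adjusted p = 4.55e-05 and 3.07e-05).

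Both SEC23 paralogs passed, SEC23B with the larger fold changes. SEC23B had 142, 145 and 139 CPM with IMP1088 and 140.3, 125 and 125 CPM with DDD86481 (log2 fold changes 0.58 ± 0.12 and 0.46 ± 0.12, edgeR adjusted p = 0.000662 and 0.00496). SEC23A had 388, 349.6 and 409 CPM with IMP1088 and 359, 366 and 401 CPM with DDD86481 (log2 fold changes 0.29 ± 0.10 and 0.26 ± 0.10, edgeR adjusted p = 0.0204 and 0.0348). The treated SEC23A libraries lay just above the DMSO libraries. Each of these calls was lost in 4 of 6 fits that left out 1 library, with adjusted p up to 0.0982 without senescent IMP1088 replicate 3 and up to 0.128 without senescent DDD86481 replicate 3. The DDD86481 call was also lost without a filter on low counts (edgeR adjusted p = 0.0681).

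In the outer cage, SEC13 had 346, 359 and 333 CPM with IMP1088 and 350.0, 331 and 332 CPM with DDD86481 (log2 fold changes 0.40 ± 0.10 and 0.36 ± 0.10, edgeR adjusted p = 0.0028 and 0.00598). SEC31A had 535, 569 and 554 CPM with IMP1088 (log2 fold change 0.61 ± 0.15, edgeR adjusted p = 0.00225). With DDD86481 it had 426, 485 and 580.0 CPM (log2 fold change 0.45 ± 0.15, edgeR adjusted p = 0.0174). All treated libraries of both genes exceeded the DMSO libraries. The DDD86481 call for SEC31A was lost in 2 of 6 fits that left out 1 library (adjusted p = 0.104 without senescent DDD86481 replicate 3).

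The subunits that did not pass included SEC24C, which was higher in senescence. It had 225, 232 and 228 CPM with IMP1088 and 221, 225 and 248 CPM with DDD86481, in and around the DMSO range of 222 to 232 CPM. The log2 fold changes of 0.00 and 0.02 had 95% intervals from -0.25 to 0.25 and from -0.23 to 0.27. SEC24B had log2 fold changes of -0.04 ± 0.14 and -0.17 ± 0.14 and SEC24D of 0.08 ± 0.14 and -0.06 ± 0.14. The SEC24B value with DDD86481 ran from -0.37 without senescent DDD86481 replicate 3, where it passed as a fall (edgeR adjusted p = 0.0355), to -0.02 without replicate 1 (edgeR adjusted p = 0.92). The lowest SEC24B and SEC24D libraries of the senescent groups, at 39.0 and 164 CPM, were both DDD86481 replicate 1.

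NMTi were also given to control cells, which had not entered senescence. With IMP1088, 5 of the 10 subunits rose and none fell (33.7% of all tested genes called, 16.3% higher), and with DDD86481, 5 rose and none fell (36.6% called, 17.8% higher). In both comparisons, which share the control DMSO libraries, these were SAR1B, SEC23B, SEC31A, SEC24A and SEC24D. The median log2 fold change of the 10 was 0.34 with IMP1088 and 0.38 with DDD86481, beside 0.00 and 0.00 for all genes. With control DMSO replicate 3 and senescent DDD86481 replicate 1 removed, 4 rose with IMP1088 and 5 with DDD86481.

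SEC24A again rose the most, to 103, 104 and 115 CPM with IMP1088 and 128, 94.8 and 118 CPM with DDD86481 (log2 fold changes 0.80 ± 0.15 and 0.88 ± 0.15, edgeR adjusted p = 0.000304 and 0.000119). SEC31A had 613, 518 and 592 CPM with IMP1088 and 637, 548 and 584 CPM with DDD86481 (0.62 ± 0.15 and 0.65 ± 0.15 on the log2 scale, edgeR adjusted p = 0.00313 and 0.00188). Treated and DMSO libraries did not overlap for either gene. SAR1B had 85.8, 85.0 and 91.7 CPM with IMP1088 and 91.0, 76.4 and 89.0 CPM with DDD86481, also clear of DMSO (0.52 ± 0.09 and 0.49 ± 0.09 on the log2 scale, edgeR adjusted p = 0.00025 and 0.000466). After the correction for transcript length the DDD86481 value for SAR1B was 0.27 (edgeR adjusted p = 0.0775), and the call was lost. PREB also rose with IMP1088 and DDD86481 in control cells (0.33 ± 0.10 and 0.36 ± 0.10 on the log2 scale, edgeR adjusted p = 0.0156 and 0.00882). Both PREB calls were lost when only the groups compared were fitted (edgeR adjusted p = 0.0844 and 0.0834). The IMP1088 call was also lost without control DMSO replicate 2 (edgeR adjusted p = 0.054).

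SEC23B had 69.6, 57.9 and 78.1 CPM with IMP1088 and 79.5, 55.9 and 73.7 CPM with DDD86481 in control cells (log2 fold changes 0.48 ± 0.12 and 0.51 ± 0.12, edgeR adjusted p = 0.00515 and 0.00336). Its lowest DDD86481 library overlapped the highest DMSO library. SEC24D had 286, 257 and 303 CPM with IMP1088 and 330.4, 259.8 and 291 CPM with DDD86481, which also overlapped DMSO (log2 fold changes 0.38 ± 0.14 and 0.44 ± 0.14, edgeR adjusted p = 0.039 and 0.0174). The IMP1088 call for SEC24D was lost in 4 of 6 fits that left out 1 library, with a value of 0.25 and an adjusted p of 0.161 without control DMSO replicate 3, and also under upper quartile scaling (edgeR adjusted p = 0.0606). The DDD86481 call was lost in 2 of 6 (edgeR adjusted p = 0.08 without control DMSO replicate 3 and 0.093 without control DDD86481 replicate 1). Both were lost when only the groups compared were fitted (edgeR adjusted p = 0.11 and 0.0814), as was the IMP1088 call for SEC31A (edgeR adjusted p = 0.0581).

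The remaining control values did not pass. SAR1A, which NMTi raised in senescent cells, had 242, 232 and 256 CPM with IMP1088 and 263, 242 and 242 CPM with DDD86481 in control cells (log2 fold changes 0.09 ± 0.08 and 0.13 ± 0.08, edgeR adjusted p = 0.403 and 0.237). SEC13 had 206 to 238 CPM with IMP1088 and 195 to 227 CPM with DDD86481 (log2 fold changes 0.12 and 0.08). Under the correction for transcript length SEC13, the shortest of the 10 transcripts, passed with both (0.31 and 0.33, edgeR adjusted p = 0.00336 and 0.00268). The log2 fold changes of SEC23A, SEC24B and SEC24C lay between 0.19 and 0.32, with all 6 adjusted p between 0.0884 and 0.129. These values turned on single libraries. Without control DMSO replicate 1, SEC24B passed with IMP1088 and DDD86481 (0.43 and 0.44, edgeR adjusted p = 0.0236 and 0.0201), as did SEC24C (0.39 and 0.41, edgeR adjusted p = 0.00599 and 0.00371). Without control DMSO replicate 3, SEC24B was at 0.14 and 0.15 and SEC24C at 0.10 and 0.12, and neither passed. SEC23A passed with DDD86481 without control DDD86481 replicate 2 (0.29, edgeR adjusted p = 0.0359).

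**Figure D3:**
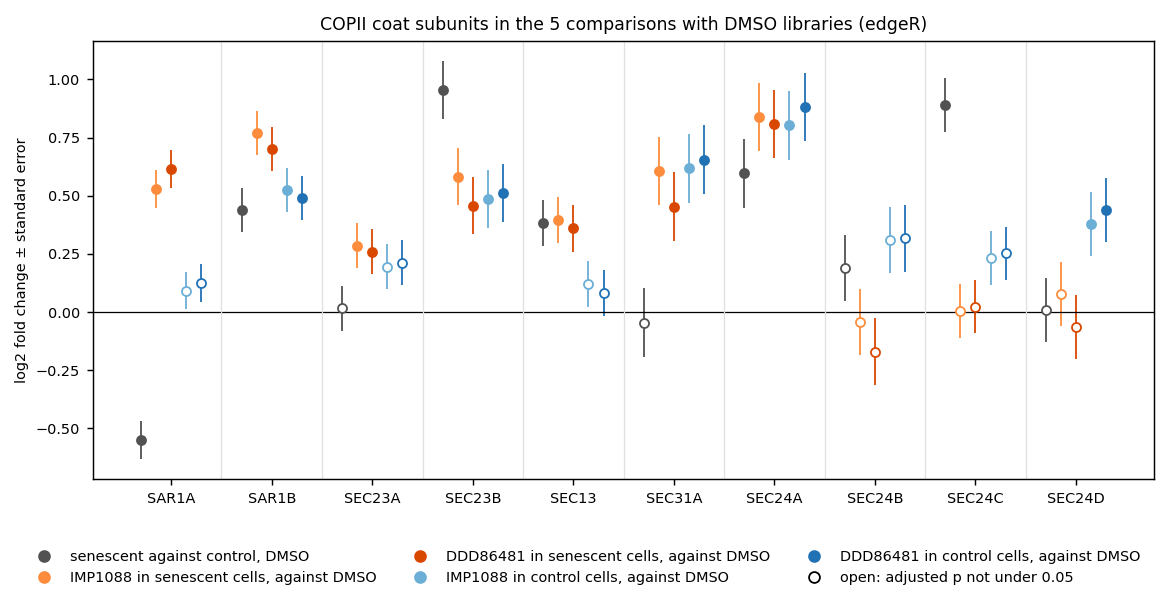
Log2 fold change with its standard error (vertical axis) of each COPII subunit (horizontal axis) in the 5 comparisons with DMSO libraries, 3 libraries per group; filled points passed an edgeR adjusted p of 0.05 and open points did not. SAR1A is the only subunit with a called fall (-0.55, senescence), and SAR1B, SEC23B and SEC24A are filled in all 5 comparisons.

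An interaction term asked whether the effect of each inhibitor differed between senescent and control cells. Of the 10 subunits only SAR1A passed, for IMP1088 (difference of log2 fold changes 0.43, edgeR adjusted p = 0.0093, in a comparison that called 26.2% of all tested genes) and for DDD86481 (0.49, adjusted p = 0.00384, 30.3% called). Its rise was larger in senescent cells. The other 9 subunits had differences between -0.35 and 0.27 for IMP1088 and between -0.50 and 0.28 for DDD86481. The most negative was SEC24D with DDD86481, at -0.50 (edgeR adjusted p = 0.0567), whose control value depended on the libraries named above. SEC24D passed for DDD86481 without a filter on low counts and with DESeq2 (adjusted p = 0.0179 and 0.0473), and SEC24B, at -0.49, without the filter (edgeR adjusted p = 0.0361). Without control DMSO replicate 1, SEC24B, SEC24C and SEC24D passed for DDD86481 (-0.61, -0.39 and -0.66) and SEC24C and SAR1B for IMP1088 (-0.39 and 0.33). Without senescent DDD86481 replicate 3, SEC24B and SEC24D passed for DDD86481 (-0.69 and -0.63). The correction for transcript length took SAR1B from 0.25 to 0.54 for IMP1088 and from 0.21 to 0.54 for DDD86481, where it passed (edgeR adjusted p = 0.0199 and 0.0186). PREB, which was not among the 10, did not pass for either inhibitor (0.29 and 0.29, edgeR adjusted p = 0.139 and 0.132).

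The paralogs of a pair are read in the same library, so the plain ratio of their CPM does not depend on library scaling. The tests added 2 to each CPM, so the tested differences can depend on it. A deviation by transcript length need not cancel where paralogs differ in length, as for SEC24A (6.39 kb) and SEC24B (5.08 kb). Their ratio ran from 1.19 to 1.46 in control DMSO libraries. SAR1A/SAR1B was 3.76 ± 0.10 (SD, n = 3) in control DMSO cells and 1.90 ± 0.09 in senescent DMSO cells, and SEC23A/SEC23B was 6.38 ± 0.51 and 3.30 ± 0.15. Across the 3 treatments, senescence lowered the first ratio to 0.567 and the second to 0.538 of its control value. Across the same 3 treatments, senescence raised SEC24A/SEC24B by 1.57-fold and SEC24C/SEC24D by 1.99-fold. With DMSO alone, SEC24A/SEC24B was 1.28 ± 0.15 in control and 1.67 ± 0.12 in senescent cells. SEC24C/SEC24D with DMSO was 0.566 ± 0.005 and 1.04 ± 0.06. Each of the 4 differences across treatments had p = 0.00025 in an exact two-sided permutation test of the libraries within treatments. This was the smallest p the test can give, with an adjusted p of 0.0004 over 8 tests.

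NMTi moved 3 of the 4 ratios. SEC24A/SEC24B rose by 1.63-fold over both states and both inhibitors, reaching 3.07 ± 0.19 with IMP1088 and 3.28 ± 0.10 with DDD86481 in senescent cells against 1.67 ± 0.12 with DMSO (exact permutation test, adjusted p = 0.0004). SAR1A/SAR1B fell to 0.829 and SEC23A/SEC23B to 0.835 of the DMSO value (exact permutation test, adjusted p = 0.000756 and 0.000972). For SEC24C/SEC24D the ratio was 0.949 of the DMSO value (exact permutation p = 0.261). Taken over both states and inhibitors, NMTi shifted the SAR1 and SEC23 pairs towards SAR1B and SEC23B and SEC24A/SEC24B towards SEC24A, as senescence did. In control cells SAR1A/SAR1B was 2.78 ± 0.04 with IMP1088 and 2.93 ± 0.22 with DDD86481, against 3.76 ± 0.10 with DMSO. In senescent cells it was 1.60 ± 0.03 and 1.79 ± 0.10, against 1.90 ± 0.09, and DDD86481 libraries overlapped DMSO. Senescent SEC23A/SEC23B libraries with DDD86481 also overlapped DMSO (2.56 to 3.19 against 3.13 to 3.42).

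**Figure D4:**
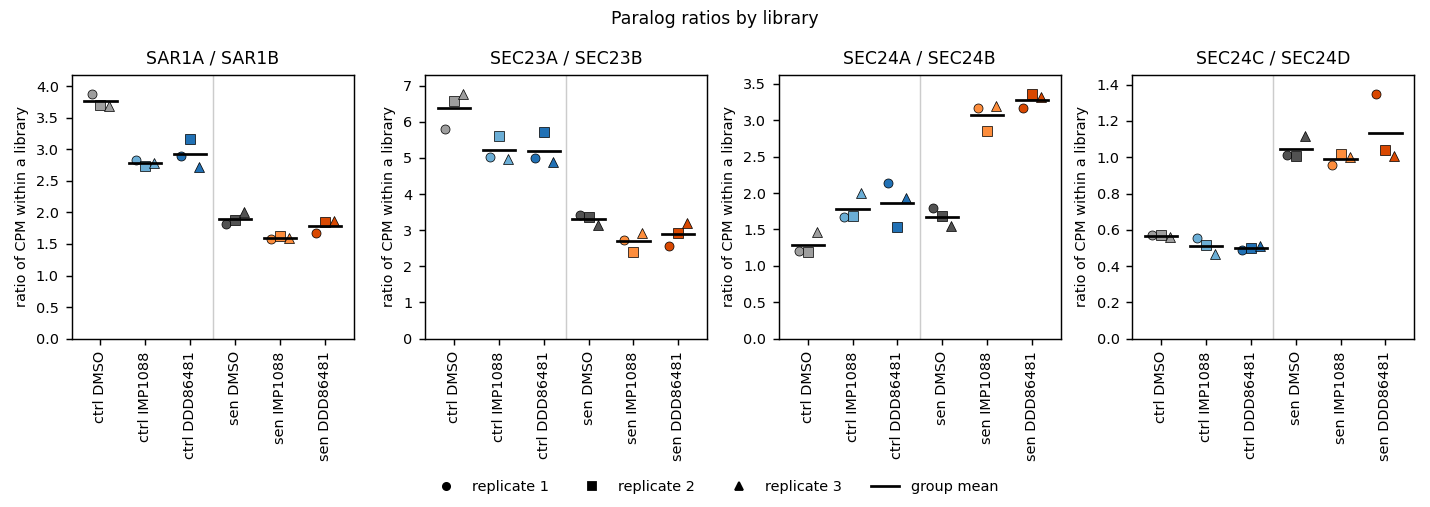
Ratio of CPM of the paralogs (vertical axes, from 0) in each library of the 6 groups (ctrl, control; sen, senescent), with a symbol for each replicate and a line at the group mean. SEC24C/SEC24D lies between 0.467 and 0.569 in the 9 control libraries and between 0.956 and 1.35 in the 9 senescent ones.

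Levels of different genes were compared as CPM per kb of the main transcript of each gene. In control DMSO cells SEC13 was the most abundant, with 149 ± 18 CPM per kb (SD, n = 3), followed by SEC31A (87.1 ± 24.4) and SEC23A (80.6 ± 3.83), whose ranges overlapped. SEC24D (54 ± 10.6), SAR1A (38.7 ± 3.51), SEC24C (27.7 ± 5.60) and SEC23B (16.2 ± 2.14) followed without overlap between neighbours. SEC24A (9.65 ± 1.17), SEC24B (9.61 ± 2.12) and SAR1B (9.34 ± 1.07) could not be ordered.

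In senescent DMSO cells the order began the same way, with SEC13 at 194 ± 20, SEC31A at 84.5 ± 3.83 and SEC23A at 81.6 ± 4.86 CPM per kb. SEC24C (51.2 ± 1.21) now overlapped SEC24D (54.4 ± 2.85), and SEC23B (31.4 ± 1.23) lay above SAR1A (26.4 ± 0.834). SEC24A, SAR1B and SEC24B came last, at 14.6 ± 0.985, 12.6 ± 0.875 and 11 ± 0.124, with no overlap. Per kb, SEC24C held 27.4% ± 0.36 of the SEC24 transcripts in control DMSO cells and 39.1% ± 1.3 in senescent DMSO cells, while SEC24D held 53.5% ± 0.70 and 41.4% ± 1.0. SEC24A held 11.1% ± 0.46 in senescent DMSO cells, and its share was 17.9% ± 1.2 with IMP1088 and 18.1% ± 1.9 with DDD86481.

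**Figure D5:**
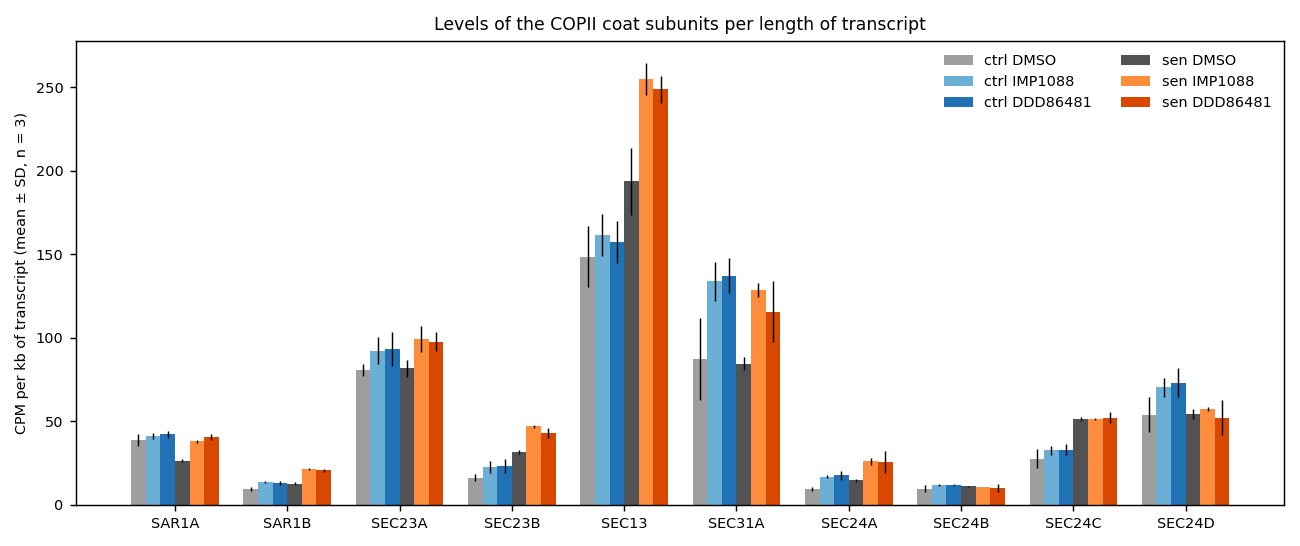
Level of each COPII subunit as CPM per kb of transcript (vertical axis, from 0; mean with SD, n = 3) in the 6 groups. SEC13 has the highest bars, from 149 in control DMSO to 255 in senescent IMP1088 cells, and the SEC24B bars stay between 9.61 and 12.

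The promoters of the subunits were searched for letters that transcription factors of the unfolded protein response are known to bind. RefSeq windows from 250 bases before to 50 bases after the start (GRCh38.p14) were held for 9 of the subunits, without SEC24D, and for 27305 genes in all. SEC31A had 4 windows, SEC13 and SEC23B had 2 and the other subunits held had 1, so the chances of a match were unequal. On either strand, the core of the unfolded protein response element (UPRE), TGACGTGG, was found for 2 subunits, SEC23A and SEC24A. It was found for 0.927% of all genes, or 1.21% of the tested genes. The shorter run ACGTGGC was found for 6 (SAR1A, SEC23A, SEC13, SEC31A, SEC24A and SEC24C) and for 3.95% of all genes, or 5.53% of the tested genes, and it overlaps the UPRE core in SEC23A and SEC24A. The longer ER stress elements ERSE and ERSE-II were found for 0 of the 9 (0.0916% and 0.0696% of all genes, 0.144% and 0.117% of tested genes). The cyclic AMP element TGACGTCA was found for 0 (2.25% of all genes, 3.79% of tested genes). A match describes these letters only and does not show that a factor binds there.

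The 30-base windows around the UPRE core are shown for SEC23A (chr14:39103221-39103250, minus strand) and SEC24A (chr5:134648595-134648624, plus strand). SEC24A rose in all 5 comparisons, while SEC23A passed only with the inhibitors in senescent cells (log2 fold changes 0.29 and 0.26). SEC23B and SAR1B also rose in all 5 comparisons, and neither held the UPRE core or ACGTGGC. Whether these letters bear on any change was not tested. The windows around ACGTGGC of SEC24C (chr10:73744289-73744318, plus strand) and SAR1A (chr10:70170697-70170726, minus strand, with the run on the reverse strand) are shown as subunits that senescence moved in opposite directions. Each is written 5′ to 3′ along the strand of the gene, with the matched letters in capitals.
SEC23A: tcccctcctctTGACGTGGcagaggcggcg
SEC24A: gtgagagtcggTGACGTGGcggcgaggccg
SEC24C: ccgaaatgcagACGTGGCagaagaagtggc
SAR1A: gttccggcgctGCCACGTctcgcgcggtca

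The genes that work with the coat were counted by lists. Each count stands against the shares of all tested genes given above for rises and, for falls, 36% in senescence, 23.9% and 23.1% with IMP1088 and DDD86481 in senescent cells, and 17.4% and 18.7% in control cells. Of the 10 tested COPII regulators and exit-site scaffolds (SEC16B was too low to test), 4 rose and 1 fell in senescence, and 5 rose and 1 fell with either inhibitor in senescent cells. The largest rise in senescence was PDCD6, a calcium sensor that binds SEC31A, with a log2 fold change of 0.55 (edgeR adjusted p = 0.0002), and the only fall was SEC31B. With the inhibitors in senescent cells the largest rise was MIA2, which works with MIA3 in the export of large cargo (1.22 with IMP1088 and 1.19 with DDD86481, edgeR adjusted p = 7.2e-07 and 1e-06). The only fall was KLHL12, the adaptor through which SEC31 is ubiquitinated (-0.38 and -0.46, edgeR adjusted p = 0.0021 and 0.00042). In control cells 5 rose and none fell with each inhibitor.

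Of the 11 cargo receptors and adaptors, 4 rose and 3 fell in senescence, and with IMP1088 and DDD86481 in senescent cells 5 and 4 rose and none fell. The senescence shares, 36.4% higher and 27.3% lower, were near those of all genes. ERGIC1 had the largest rise in senescence (0.49, edgeR adjusted p = 0.0029) and SCAP, the escort of the SREBP factors, the largest fall (-0.59, edgeR adjusted p = 1.5e-05). By the mean over both inhibitors the largest rise in senescent cells was CNIH1, a cornichon cargo receptor (0.62 and 0.48, edgeR adjusted p = 9.2e-05 and 0.0011), although SCAP rose more with DDD86481 (0.53). In control cells 3 rose and 2 fell with each inhibitor.

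Of the 13 tethers and SNAREs that receive COPII vesicles, 8 rose and none fell in senescence, led by the GTPase RAB1B (0.80, edgeR adjusted p = 2.5e-08). With IMP1088 and DDD86481 in senescent cells 8 and 6 rose, led in the mean over both inhibitors by the SNARE GOSR2 (1.02 and 0.93, edgeR adjusted p = 1e-07 and 3.6e-07), and 1 fell, which was RAB1B (-0.32 and -0.26, edgeR adjusted p = 0.0028 and 0.014). SEC22B matched GOSR2 with IMP1088 (1.02), and BET1 rose more with DDD86481 (1.11). The second RAB1B call was lost without senescent DMSO replicate 3 (-0.18, edgeR adjusted p = 0.0948) and when only the groups compared were fitted (edgeR adjusted p = 0.0653). In control cells 5 rose with each and 2 and 3 fell.

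The other vesicle coats were counted for contrast. Of the 9 COPI coatomer subunits, which carry traffic back from the Golgi, 5 rose and 3 fell in senescence, with ARCN1 (0.64, edgeR adjusted p = 0.00017) and COPZ2 (-1.10, edgeR adjusted p = 1.1e-06) at the ends. With each inhibitor in senescent cells 5 rose, led by COPB1 (0.59 and 0.56, edgeR adjusted p = 4.1e-06 and 9.4e-06), and 1 fell, COPG2 (-0.44 and -0.42, edgeR adjusted p = 0.0023 and 0.0034). Of the 11 clathrin and adaptor genes, 8 rose and none fell in senescence, led by AP1B1 (1.10, edgeR adjusted p = 7.5e-10), while with IMP1088 and DDD86481 in senescent cells 1 and 0 rose and 2 and 1 fell, AP2M1 with both (-0.37 and -0.38, edgeR adjusted p = 0.00061 and 0.00044). The medians with IMP1088 were 0.46 for the COPII subunits, 0.35 for COPI and -0.01 for clathrin and adaptors, against -0.04 for all genes. In control cells 4 COPI genes rose with each inhibitor and 2 and 3 fell, and 1 and 2 clathrin and adaptor genes rose and 4 fell.

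Of the 14 ER chaperones, 6 rose in senescence, 13 with IMP1088 and 12 with DDD86481 in senescent cells and 9 with each in control cells, and none fell in any of the 5 comparisons. SDF2L1 rose the most in senescence (0.77, edgeR adjusted p = 0.0024) and HSPA5, the chaperone BiP, in the mean over both inhibitors in senescent cells (1.99 and 1.71, edgeR adjusted p = 3.6e-09 and 2.2e-08). Of the 7 ER stress and secretory transcription factors, 1 rose and 3 fell in senescence, with ATF6B (0.44, edgeR adjusted p = 0.00066) and CREB3L1 (-1.05, edgeR adjusted p = 2.6e-08) at the ends. With IMP1088 and DDD86481 in senescent cells 5 rose with each and 2 and 1 fell, with CREB3 (1.32 and 1.39, edgeR adjusted p = 2.9e-08 and 1.7e-08) and CREB3L1 (-0.59 and -0.52, edgeR adjusted p = 0.00014 and 0.00049) at the ends of the same mean. In control cells 4 and 3 rose and none fell.

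For each subunit the genes with the most similar pattern were found by Pearson's r of log2 CPM over the 18 libraries, which share groups and depth, so r is given as a description. SEC24C was closest to NOMO2 (r = 0.993) and IQSEC2 (0.993), SAR1B to GOLT1B (0.988) and BLZF1 (0.985), SEC23B to DNAJA3 (0.986) and CTH (0.985), and SEC13 to RCN3 (0.985) and MRPL2 (0.984). SEC24A was closest to KLHDC10 (0.979) and SLC39A9 (0.976), SEC31A to ESYT2 (0.978) and NPAT (0.976), and SAR1A to DNAJC25 (0.962) and TRABD2A (0.961). The closest to SEC24D were KAT7 (0.944) and KHSRP (0.934), to SEC24B CLIP3 (0.931) and KIAA0556 (0.914), and to SEC23A SACM1L (0.899) and FKBP14 (0.898). Among the subunits themselves, SEC23B had r of 0.932 with SEC13 and 0.923 with SEC24C, whereas SEC13 had r of -0.42 with SEC24D and 0.07 with its cage partner SEC31A.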

How the data were processed

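Poly(A) RNA of 18 IMR90 ER:RAS cell libraries was measured by directional single-end RNA-seq. The values the authors deposited are raw counts of reads, in 1 table with gene symbols as rows and libraries as columns. The study's methods name TopHat, hg19 and Ensembl annotation, whereas the submitters' processing notes list hg38, DRAGEN, STAR 2.7.8a and DESeq2 1.32.0. The study's software list names HTSeq and its alignment used a stranded library type, but which pipeline made this table and the strand setting of its counting were not given in the sources used here, so counts of overlapping genes are uncertain. Positions and promoters are from RefSeq on GRCh38.p14. Transcript lengths are those of MANE Select transcripts in GENCODE and were available for 89.7% of the tested genes.

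Groups came from the labels. The filter filterByExpr kept 14341 genes with 99.962% of counts, and 6836 rows were empty. Counts were scaled by TMM and tested in edgeR 4.0.16 (R 4.3.3) with the quasi-likelihood test, in 1 fit of 18 libraries over 6 groups, with Benjamini-Hochberg adjustment over all tested genes of a comparison and a threshold of 0.05. Standard errors came from the F statistic. Ratios of paralogs, as differences of log2 values with 2 added to each CPM, were tested by exact permutation of libraries within strata (numpy 2.4.6). Alternatives were no filter, other scalings, DESeq2 1.42.0, only the groups compared, a replicate block, and leaving out each library. A lowess offset on transcript length (span 0.3) and the removal of control DMSO replicate 3 with senescent DDD86481 replicate 1 were alternatives chosen after seeing the data. The offset was fitted to deviations from the mean of all 18 libraries, so it also removed length-related differences between groups. Simulated data were used to check the test.

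Replicates differed by more than counting noise (chi-square per gene from 5.09 up to 101, the latter between control DMSO replicates 1 and 3), so none was counted as a duplicate. Libraries of control DMSO and control IMP1088 that carry the same number deviated together from the means of their groups (r = 0.394, 0.123 and 0.231, each above 0.1), and no label supports this pairing. For the other groups compared, at least 1 pair was under 0.1. The IMP1088 and DDD86481 groups of a state, pooled for the paralog ratios, also deviated together by number. Their r was 0.101, 0.27 and 0.129 in control cells and 0.117, 0.126 and 0.119 in senescent cells. The 10 members and the lists were chosen with earlier results of these data known. Named genes are all members, SEC31B, PREB, the largest called rise and fall of each list in senescence and, by mean log2 fold change, with both inhibitors in senescent cells, and the 2 genes most correlated with each member.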

Additional observations from a re-analysis of the deposited data

Results flagged for a closer look

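The effect of the inhibitors on SAR1A differed between senescent and control cells by the interaction test. The difference of log2 fold changes, senescent minus control, was 0.43 for IMP1088 (edgeR adjusted p = 0.0093) and 0.49 for DDD86481 (edgeR adjusted p = 0.00384). All 6 treated senescent libraries were above the 3 senescent DMSO libraries, whereas treated and DMSO libraries overlapped in control cells. Both differences passed in each of the 12 fits that left out 1 library, with values from 0.37 to 0.50 for IMP1088 and from 0.43 to 0.57 for DDD86481. The comparisons of the 2 inhibitors share their DMSO libraries. The 3 libraries per group were too few for the test of single outlying libraries.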

How the results depend on the processing

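The numbers of subunits called in senescence (6 of 10) and with either inhibitor in senescent cells (7 of 10) stayed within 1.5 times under every alternative. With IMP1088 in control cells 3 of 10 were called when only the groups compared were fitted, where all-gene counts fell from 4829 to 2716 (IMP1088) and from 5242 to 2842 (DDD86481). For the interactions, where 1 subunit was called, DDD86481 gave 3 without a filter and 2 with DESeq2, and both inhibitors gave 2 with the length offset. Leaving out 1 library gave from 1 to 3 for IMP1088 (3 without control DMSO replicate 1) and from 1 to 4 for DDD86481 (4 without control DMSO replicate 1 and 3 without senescent DDD86481 replicate 3). With a replicate block the counts were 6 in senescence, 7 and 7 in senescent cells, 5 and 5 in control cells and 1 and 1 for the interactions, and no call of a subunit changed.

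With the DMSO libraries alone the senescence differences of the log2 paralog ratios were -0.97 for SAR1, -0.92 for SEC23, 0.38 for SEC24A/SEC24B and 0.87 for SEC24C/SEC24D (exact permutation p = 0.1, the smallest that 3 against 3 can give). The NMTi difference for SEC24C/SEC24D was -0.11 with IMP1088 alone (exact permutation p = 0.015), and leaving out 1 library gave from -0.11 to -0.051, with p = 0.00893 without senescent DDD86481 replicate 1.

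Signs turned only for log2 values that had not passed. In senescence, SEC23A was -0.14 and SEC24D -0.14 with upper quartile scaling and -0.011 and -0.12 with the 2 libraries removed, and SEC31A was 0.025 with the length offset. Leaving out 1 library gave from -0.032 to 0.057 for SEC23A, from -0.12 to 0.17 for SEC24D and from -0.24 to 0.16 for SEC31A. With IMP1088 in senescent cells SEC24C was -0.0028 without a filter, -0.0073 with the RLE factors and -0.0064 with DESeq2, from -0.015 to 0.018 without 1 library, and SEC24B was 0.013 with the length offset. With DDD86481 in senescent cells SEC24C ran from -0.029 to 0.057 and SEC24D from -0.20 to 0.086 without 1 library, and SEC24D was 0.085 with the 2 libraries removed. In control cells SAR1A was -0.067 with IMP1088 and -0.071 with DDD86481 under the length offset. Among the IMP1088 interactions SEC31A was 0.038 with upper quartile scaling, 0.025 with only the groups compared, 0.19 with the 2 libraries removed and 0.072 with the length offset, and SEC13 was -0.041 with the length offset. Without 1 library they ran from -0.22 to 0.18 for SEC31A, from -0.015 to 0.23 for SEC23B and from -0.045 to 0.13 for SEC24A. Among the DDD86481 interactions the length offset gave -0.073 for SEC13 and 0.21 for SEC24A, and removing the 2 libraries gave 0.095 for SEC31A and 0.19 for SEC24A. Without 1 library they ran from -0.17 to 0.088 for SEC23B, from -0.29 to 0.094 for SEC24A and from -0.0017 to 0.16 for SEC23A. The cause of these changes was not tested. Changes of SEC13, SAR1A and SAR1B in control cells depended on the length offset. The called changes of SEC23A in senescent cells and of SEC24D in control cells were lost in some of the fits that left out 1 library. Each group held 3 libraries, and no detection limit was computed.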
